A study of Mus musculus with 6 samples.

Results

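The genes described here encode the amino acid transporter families SLC1, SLC3, SLC6, SLC7, SLC36, SLC38 and SLC43 of the mouse. They were taken by name, as every gene whose symbol is Slc followed by one of these family numbers, the letter a and a number. The choice was made with earlier results of these data known. Of 20788 genes with a value in any library, 44 had such a name, and 28 of the 14336 genes that could be tested were members. Names with a further letter at the end, such as *Slc6a20b*, were not matched. Another 17 annotated genes with such names were listed in no library, so 44 of 61 annotated members were detected at all.

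Expression had been measured by sequencing mRNA of B16 melanoma cells, a mouse tumour line of the C57BL/6 strain that makes the pigment melanin, in 3 libraries each of Tyr-H and Tyr-L cells. Tyr-H cells are labelled as having high tyrosinase activity and Tyr-L cells as having low tyrosinase activity, and neither group carries a labelled transgene or treatment. Both are subclones grown from colonies of sparsely plated B16 cells, and both had been cultured in low-glucose DMEM with serum and antibiotics. Whether the 3 libraries of either kind are separate cultures, or stem from more than 1 clone, is not given in the sources used here, so the p-values measure only the spread between these libraries, which may be technical.

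Amino acids cross membranes through carriers that differ in the substrates they accept and in what drives them. Light chains of the SLC7 family, such as *Slc7a5* for tyrosine and other large neutral amino acids and *Slc7a11* for cystine, reach the cell surface bound to the heavy chain CD98, the product of *Slc3a2*, and exchange one amino acid for another. Carriers of the SLC1 and SLC38 families draw on the sodium gradient or exchange neutral amino acids, and some carriers, such as *Slc36a1*, use protons. In pigment cells, tyrosine is the substrate of tyrosinase for melanin, and cysteine enters the red form of the pigment and glutathione, and the transcription factor ATF4 is known to raise several of these carriers when amino acids run short or proteins misfold.

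Levels were given as FPKM, fragments scaled to transcript length and to the fragments of a library, so that genes can be compared with each other. The libraries listed between 16813 and 17413 genes, and their depth, which the files do not state, was estimated at 18600000 to 21100000 fragments. All 7 melanocyte identity genes checked were listed in every library. Mean *Tyr* was 10.0 FPKM for Tyr-L and 21.3 FPKM for Tyr-H cells, and mean *Mitf*, the melanocyte master regulator, was 90.5 and 25.0 FPKM, and of the 7 genes *Tyr* alone passed the adjusted p as higher in Tyr-H cells while the other 6 passed it as lower. Of the markers of other cells, 3 of 8 immune, 6 of 6 fibroblast, 2 of 5 endothelial and 2 of 4 keratinocyte genes were listed. The highest of them was *Cd68*, at 3.06 to 4.45 FPKM, and every fibroblast, endothelial and keratinocyte marker stayed under 1 FPKM in every library. Differences were tested on log2(FPKM + 0.1) with limma, and calls required an adjusted p no larger than 0.05 together with a change of 2-fold or more (1 on the log2 scale). On this scale the change of genes near 0.1 FPKM is understated, and the median of all tested genes was -0.15, so a transporter at 0 lay slightly above the middle of the genes.

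In Tyr-H cells, 6 of the 28 tested transporters were called higher and 1 was called lower. Over all tested genes 8.75% were called, 2.96% as higher and 5.78% as lower, so that 33.9% of all calls were on the higher side, a share that moved between 25.5% and 54.1% with other scalings of the libraries. The 6 that rose were *Slc6a9*, *Slc38a3*, *Slc7a11*, *Slc1a4*, *Slc3a2* and *Slc7a5*, and the gene that fell was *Slc7a15*, which reached the mean of 0.1 FPKM needed for a test only through its Tyr-L libraries. The RNA came from whole cultures, so more cells with a transporter and more RNA per cell cannot be told apart. With the adjusted p alone and no minimum fold, 11 transporters were higher and 6 were lower, while 17.9% of all genes were higher and 39.9% were lower. These counts were 15 and 4 with median ratio scaling and with quantile normalization, and 11 and 7 when libraries were rescaled to the same total. In 14 transporters every Tyr-H library lay above every Tyr-L library, and in 8 every Tyr-L library lay above. Over all tested genes, 20.2% had every Tyr-H library above and 43.8% every Tyr-L library above, 64% in all. The median log2 fold change of the tested transporters was 0.08, beside -0.15 for all tested genes, a median that was -0.25 to -0.01 with other scalings.

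**Figure D1:**
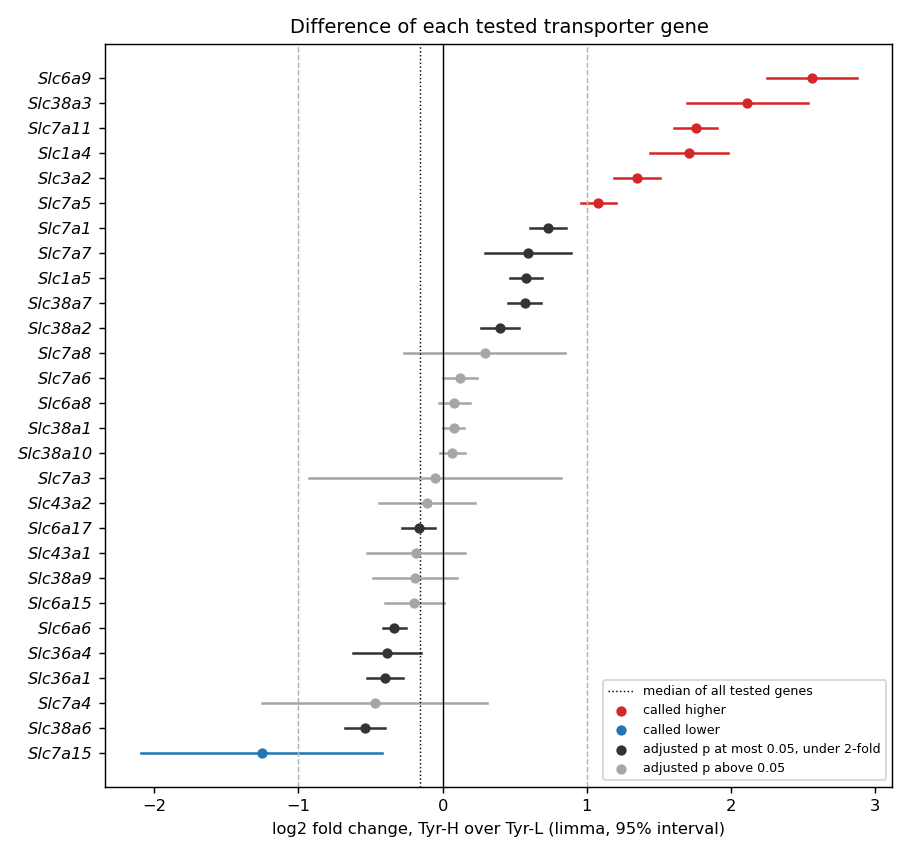
Log2 fold change of each of the 28 tested transporter genes, Tyr-H over Tyr-L (x axis, limma on log2(FPKM + 0.1)), with bars for the 95% interval, dashed lines at a 2-fold change and a dotted line at the median of all tested genes (-0.15). The 6 genes called higher run from *Slc7a5* at 1.08 to *Slc6a9* at 2.56, *Slc7a15* is the gene called lower, and the genes between -0.11 and 0.08 (*Slc43a2*, *Slc7a3*, *Slc38a10*, *Slc38a1* and *Slc6a8*) change sign under at least 1 other scaling of the libraries.

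*Slc3a2* (ENSMUSG00000010095, chr19:8706882-8723369 of GRCm38, minus strand) encodes the heavy chain that escorts several SLC7 light chains to the plasma membrane. It was the most abundant transporter in Tyr-H cells and came after *Slc6a6* in Tyr-L cells, at 76.0, 86.4 and 79.1 FPKM in Tyr-L cells and at 185, 206 and 225 FPKM in Tyr-H cells. The groups were wide apart, with no Tyr-H value near the Tyr-L range. Its group means were 80.5 ± 5.36 and 205 ± 20.1 FPKM (SD, n = 3), and the fitted log2 difference was 1.35 (standard error 0.07, adjusted p = 8.9e-07). The other heavy chain, *Slc3a1*, which serves cystine uptake in kidney and gut, was listed in 3 of 6 libraries at no more than 0.0604 FPKM.

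*Slc7a5* (ENSMUSG00000040010, chr8:121881150-121907694, minus strand) encodes the light chain through which many tumour cells take up tyrosine, leucine and other large neutral amino acids. Its Tyr-L libraries read 57.9, 67.3 and 63.1 FPKM and its Tyr-H libraries 133, 137 and 128 FPKM. No Tyr-H value came near the Tyr-L range. The fitted log2 difference was 1.08 (standard error 0.05, adjusted p = 6.5e-07), and rescaling each library to the same total FPKM brought it to 0.99, just under the fold threshold. *Slc7a5* overlaps *Gm20388* on the opposite strand, and the deposited tables gave both the same locus. *Gm20388* had a Tyr-L mean of 11.5 FPKM and a Tyr-H mean of 12.2 FPKM and did not pass the test.

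*Slc7a11* (ENSMUSG00000027737, chr3:49892526-50443614, minus strand) encodes the light chain that brings cystine in and lets glutamate out. Its libraries read 13.8, 12.5 and 13.4 FPKM in Tyr-L cells and 40.5, 46.7 and 47.5 FPKM in Tyr-H cells. The groups were far apart for the spread within them, and its adjusted p was the smallest among the transporters. The ratio of the means was 3.40 and the fitted log2 difference was 1.75 (standard error 0.07, adjusted p = 2.1e-07). The gene overlaps 5 predicted genes, 3 of them on the opposite strand, and the sources used here do not say whether reads were assigned by strand.

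The light chains were also compared with each other, as FPKM is given per length. *Slc7a5* made up 66.4 ± 1.77% of the summed level of the 5 listed light chains in Tyr-L cells and 66.7 ± 1.87% in Tyr-H cells (SD, n = 3), which differed by less than the spread. *Slc7a11* made up 15.3, 12.6 and 14.1% of the sum in Tyr-L libraries and 20.9, 22.8 and 24.1% in Tyr-H libraries. The share of *Slc7a6* was smaller in every Tyr-H library, with means of 16.2% and 8.38%, although its own level was slightly higher there. *Slc3a2* divided by the sum of the light chains gave 0.847, 0.875 and 0.836 in Tyr-L libraries and 0.954, 1.00 and 1.14 in Tyr-H libraries. The mRNA of the heavy chain thus stood below that of its light chains in all Tyr-L libraries and between 0.954 and 1.14 times it in Tyr-H libraries.

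**Figure D2:**
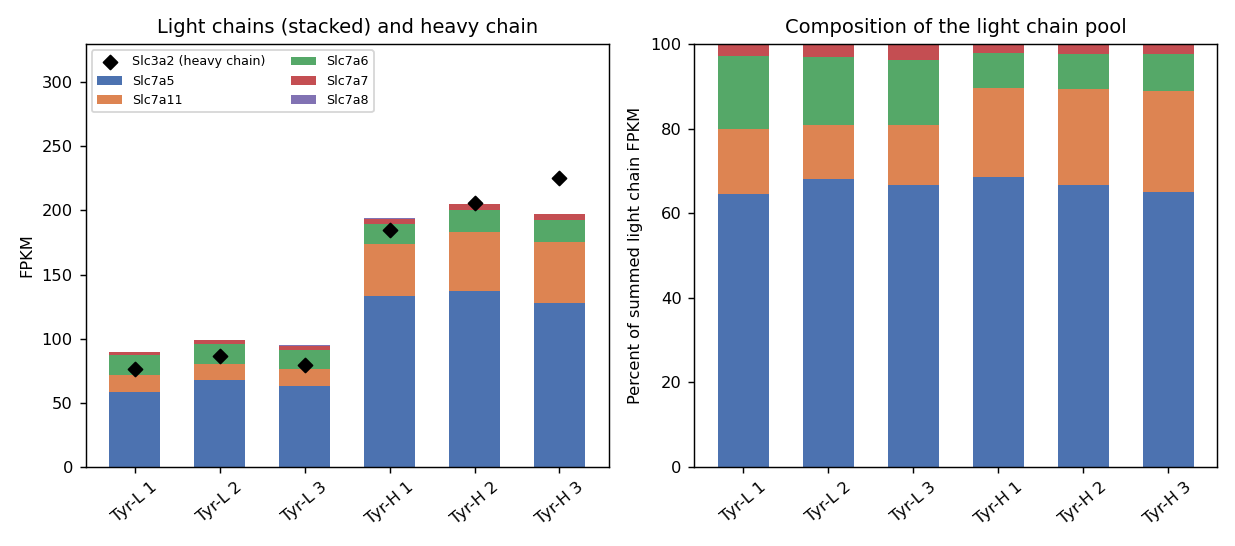
Left, FPKM (y axis) of the 5 light chain genes stacked for each library, with a diamond for the heavy chain *Slc3a2*; right, each light chain as a percent of the stacked sum. The stacks had means of 94.4 FPKM (Tyr-L) and 199 FPKM (Tyr-H), the *Slc7a5* share had means of 66.4% and 66.7%, and the *Slc7a11* share was larger in each Tyr-H library than in any Tyr-L library.

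The tyrosine and large neutral amino acid list held 7 tested genes, of which 2 (*Slc7a5* and *Slc3a2*) were called higher, none was called lower, and 1 (*Slc6a17*) passed the adjusted p on the lower side. Among all tested genes, 2.96% were called higher, 5.78% were called lower and 39.9% passed the adjusted p on the lower side. The list did not hold *Slc7a15*, the aromatic amino acid carrier that was called lower and is described after this list. Its median log2 fold change was -0.11, beside -0.15 for all genes, and this median turned to 0.04 with median ratio scaling and to 0.06 with quantile normalization. The summed level of the list rested on few genes. It was 169, 185 and 174 FPKM in Tyr-L libraries and 348, 372 and 383 FPKM in Tyr-H libraries, a ratio of 2.08. Without *Slc3a2*, which is shared with 2 other lists, the ratio was 1.69.

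The other large neutral carriers were at lower levels than *Slc7a5*, from under 1 FPKM for *Slc7a8* to means of 21.8 and 19.4 FPKM for *Slc6a17*. *Slc7a8*, the second light chain for large neutral amino acids, was at 0.209, 0.222 and 0.205 FPKM in Tyr-L libraries and 0.347, 0.252 and 0.253 FPKM in Tyr-H libraries (log2 fold change 0.29, adjusted p = 0.34). *Slc43a1*, a facilitated carrier of branched-chain and aromatic amino acids, had means of 1.66 and 1.44 FPKM, and its groups overlapped. *Slc43a2*, its closest relative, had a Tyr-L mean of 3.03 FPKM and a Tyr-H mean of 2.78 FPKM, with overlapping groups (log2 fold change -0.11, adjusted p = 0.55). Neither SLC43 gene passed the test in limma, even at an unadjusted p of 0.05. *Slc6a15*, a sodium-driven carrier of branched-chain amino acids and proline, was at 5.99 to 6.94 FPKM in Tyr-L libraries and 4.99 to 5.98 FPKM in Tyr-H libraries (adjusted p = 0.091). *Slc6a17*, known as a vesicular carrier of neutral amino acids in neurons, was lower in each Tyr-H library, with a log2 fold change of -0.17 (adjusted p = 0.019), close to the median of all genes. It did not pass with median ratio scaling (adjusted p = 0.83), quantile normalization (adjusted p = 0.51), no variance trend (adjusted p = 0.052), or without Tyr-L library 1, Tyr-H library 1 or Tyr-H library 2. The epithelial large neutral carriers *Slc6a14*, *Slc6a18* and *Slc6a19* were listed in no library.

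*Slc7a15* (ENSMUSG00000020600, chr12:8528483-8599066, minus strand), an SLC7 light chain known in the mouse to prefer aromatic amino acids, was the transporter called lower and stood on none of the 4 substrate lists, although tyrosine is an aromatic amino acid. Its 3 Tyr-L values were 0.192, 0.332 and 0.169 FPKM. In Tyr-H cells it was not listed in library 1 and had 0.0905 and 0.0314 FPKM in libraries 2 and 3. The level that 3 fragments would give it was 0.0744 to 0.0847 FPKM by the estimated depth, for counting error only, so 2 of the 3 Tyr-H values lay under it. The fitted log2 difference was -1.25 (standard error 0.37, adjusted p = 0.017), and without Tyr-L library 2 the adjusted p was 0.063 and the call was lost. Its Tyr-H mean of 0.0406 FPKM was under the 0.1 FPKM required of the mean over the 6 libraries, which it passed (0.136 FPKM) through its Tyr-L mean of 0.231 FPKM, so a gene this low in Tyr-H cells could be tested only if it was higher in Tyr-L cells. With no filter on low values the adjusted p was 0.0145. With a pseudocount of 1 the log2 difference was -0.24, under the fold threshold. The gene also overlaps *5033421B08Rik* on the opposite strand.

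In the cystine and cysteine list, the 3 genes that could be tested (*Slc7a11*, *Slc1a4* and *Slc3a2*) were all called higher, beside 2.96% of all tested genes. Their median log2 fold change was 1.71. The list sum was 96.6, 109 and 101 FPKM in Tyr-L libraries and 251, 282 and 301 FPKM in Tyr-H libraries, a ratio of 2.72. Without the heavy chain it was 20.6 to 22.4 FPKM against 66.0 to 75.9 FPKM, a ratio of 3.34. The 3 other listed genes of this list, *Slc7a9*, *Slc3a1* and *Slc1a1*, which carry cystine or cysteine in epithelia and neurons, were listed in at most 3 libraries and were too low to test. With these untested genes included in the median, it was 0.75.

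*Slc1a4* (ENSMUSG00000020142, chr11:20302180-20332713, minus strand) encodes a sodium-dependent exchanger of alanine, serine, cysteine and threonine. It was at 6.79, 9.86 and 8.81 FPKM in Tyr-L libraries and at 25.6, 29.1 and 28.4 FPKM in Tyr-H libraries. The fitted log2 difference was 1.71 (standard error 0.12, adjusted p = 3.8e-06). The lowest Tyr-H value was more than 2-fold above the highest Tyr-L value. Its closest relative *Slc1a5*, an exchanger that carries glutamine, was more abundant but moved less, from 36.3, 40.3 and 40.8 FPKM to 56.3, 59.2 and 59.4 FPKM (log2 fold change 0.58, adjusted p = 1.3e-05). The 4 listed SLC1 genes for glutamate and aspartate, *Slc1a1*, *Slc1a2*, *Slc1a3* and *Slc1a7*, had at most 0.0398 FPKM in any library, and none could be tested.

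Because ATF4 is known to act on several of these genes, their start regions were searched for the ATF4 composite element, the letters TGATGNAA on either strand. RefSeq windows of 250 bases before and 50 bases after a start site (GRCm38.p6) were given for 32 of the 44 members, 19 of the 28 tested and 4 of the 6 called higher, with none for *Slc7a5* or *Slc38a3*. The element was present in 3.97% of all 32851 windows and in 4.51% of the genes with a window. It was found in 3 tested transporters, *Slc7a11*, *Slc1a4* and *Slc7a7*, of which the first pair was called higher. The stretches with the matches are shown 5′ to 3′ on the gene's own strand, all 4 genes lying on the minus strand, with matches in capitals. The other called genes with a window, *Slc6a9* and *Slc3a2*, had no match, and *Slc3a2* is shown as an example. Its sole window belongs to a start inside the gene, not at the 5′ end of the span given above, where no window was searched. The *Slc7a7* start shown lies just before the annotated gene, as 1 of several RefSeq starts.
*Slc7a11*, chr3:50443614-50443713: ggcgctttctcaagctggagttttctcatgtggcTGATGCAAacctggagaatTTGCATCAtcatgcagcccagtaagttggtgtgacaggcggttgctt
*Slc1a4*, chr11:20332710-20332813: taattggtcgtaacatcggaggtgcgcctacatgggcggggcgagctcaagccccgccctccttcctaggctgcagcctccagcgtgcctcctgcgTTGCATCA
*Slc7a7*, chr14:54417938-54418104: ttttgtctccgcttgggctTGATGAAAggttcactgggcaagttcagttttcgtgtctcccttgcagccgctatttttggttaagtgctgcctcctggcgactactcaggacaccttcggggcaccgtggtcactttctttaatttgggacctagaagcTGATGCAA
*Slc3a2*, chr19:8713898-8713997: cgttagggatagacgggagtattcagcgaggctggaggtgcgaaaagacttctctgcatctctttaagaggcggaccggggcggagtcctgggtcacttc

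The *Slc7a11* window held the element in both orientations, from -66 to -59 and, reversed, from -47 to -40 relative to the start site. In *Slc1a4* the reversed element ran from -4 to 4, across the start site. In *Slc7a7* the element lay in the forward orientation from -141 to -134 and again from -1 to 7. *Slc7a7* passed the adjusted p without reaching a 2-fold change, and *Slc7a11* and *Slc1a4* were past both. A match is a string of letters in a window and not a measured binding site, and genes without a match may carry it elsewhere.

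Among the carriers of lysine, arginine and other cationic amino acids, 1 of 7 tested genes (*Slc3a2*) was called higher, beside 2.96% of all tested genes. On the adjusted p, 3 passed on the higher side, beside 17.9%, and none on the lower side, beside 39.9%. The median log2 fold change of the list was 0.12. It was 0.59 with a filter at a mean of 1 FPKM, 0.026 with no filter and 0.027 when libraries were rescaled to the same total. *Slc7a1* encodes the main cationic amino acid carrier of most cells outside the liver. It read 45.0, 51.9 and 48.3 FPKM in Tyr-L libraries and 76.3, 83.4 and 81.4 FPKM in Tyr-H libraries. The groups were well separated, and it was higher by 0.73 on the log2 scale (standard error 0.06, adjusted p = 6.2e-06), which is under the fold threshold. *Slc7a7*, a light chain that exchanges cationic for neutral amino acids, stood at 2.39, 2.83 and 3.41 FPKM in the former and at 3.92, 4.63 and 4.47 FPKM in the latter (log2 fold change 0.59, adjusted p = 0.0041). It overlaps *Oxa1l* on the opposite strand, which had means of 21.5 and 23.3 FPKM. Its relative *Slc7a6* had means of 15.3 and 16.7 FPKM (log2 fold change 0.12, 95% interval 0.004 to 0.24, adjusted p = 0.071). It passed as higher with median ratio scaling (0.27, adjusted p = 0.0014) and quantile normalization (0.26, adjusted p = 0.0025), which makes 4 of the 7 cationic genes.

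The rest of the cationic list was at low levels. *Slc7a3*, a second cationic carrier, stayed between 0.0269 and 0.156 FPKM with overlapping groups, and its log2 fold change of -0.05 became 0.02 with median ratio scaling and 0.13 with quantile normalization. *Slc7a4*, a related gene without an established substrate, had means of 0.513 and 0.327 FPKM and overlapping groups (log2 fold change -0.47, adjusted p = 0.27). Without Tyr-L library 3, the lowest of its group, it was at -0.84 and passed (adjusted p = 0.038). *Slc38a9*, the lysosomal protein that senses arginine for mTORC1, had means of 1.59 and 1.38 FPKM (adjusted p = 0.23). Summed over the list, the cationic carriers gave means of 149 ± 9.30 and 309 ± 23.8 FPKM (SD, n = 3) for Tyr-L and Tyr-H, a ratio of 2.07 with *Slc3a2* and of 1.50 without it.

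Of the 6 tested glutamine carriers, *Slc38a3* was called higher, 4 passed the adjusted p on the higher side, none passed it on the lower side, and the median log2 fold change was 0.48. Of all tested genes, 2.96% were called higher, and 17.9% and 39.9% passed the adjusted p on the higher and the lower side. *Slc38a3* (ENSMUSG00000010064, chr9:107650634-107669530, minus strand), a carrier of glutamine, asparagine and histidine best known from liver, kidney and astrocytes, was low in all Tyr-L libraries, at 0.376, 0.454 and 0.394 FPKM, and stood at 1.79, 1.91 and 2.68 FPKM in Tyr-H libraries. The ratio of the means was 5.21 and the fitted log2 difference was 2.11 (standard error 0.19, adjusted p = 1.5e-05). It contributed 0.217% of the summed level of the glutamine list in Tyr-L and 0.891% in Tyr-H cells, as means of 3 libraries. *Slc38a2*, the carrier of neutral amino acids that cells raise on amino acid shortage, was at 51.0, 57.2 and 55.7 FPKM in Tyr-L and at 67.0, 77.3 and 71.9 FPKM in Tyr-H libraries (log2 fold change 0.40, adjusted p = 3.6e-04). *Slc38a7*, a lysosomal exporter of glutamine and asparagine, was at 17.1 to 18.7 FPKM in Tyr-L and 25.2 to 26.9 FPKM in Tyr-H libraries (log2 fold change 0.57, adjusted p = 1.4e-05).

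*Slc38a1*, the most abundant glutamine carrier by its mean over the 6 libraries, differed by less than most of the others. It was at 73.4, 74.9 and 75.6 FPKM in Tyr-L and at 79.0, 80.0 and 76.9 FPKM in Tyr-H libraries, and its log2 fold change of 0.08 (95% interval 0.003 to 0.15, adjusted p = 0.07) depended on the scaling. It became -0.02 when libraries were rescaled to the same total, and it passed as higher with median ratio scaling (0.23, adjusted p = 3e-04) and quantile normalization (0.14, adjusted p = 0.0064). Its share of the summed glutamine list was smaller in Tyr-H cells, at 33.0 ± 1.14% against 39.7 ± 1.03% (SD, n = 3), while the share of *Slc1a5* was 24.4 ± 0.447% against 20.8 ± 0.577%. Summed, the list came to 188 ± 7.13 FPKM (Tyr-L) and 239 ± 8.17 FPKM (Tyr-H), a ratio of 1.27, the smallest of the 4 substrate lists.

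**Figure D3:**
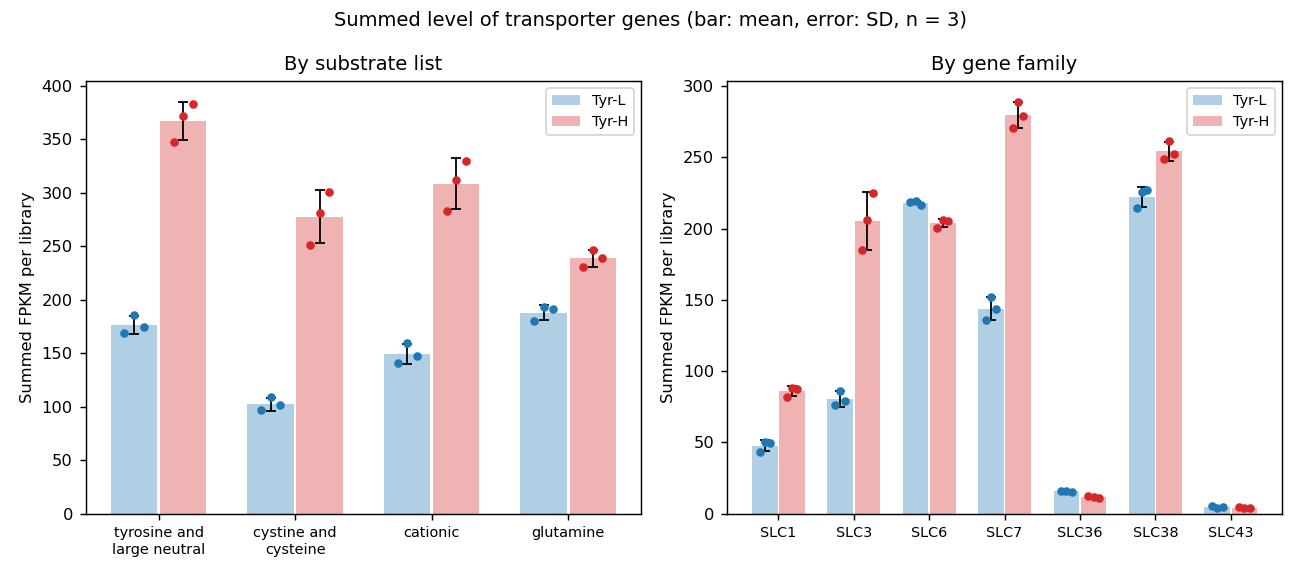
Summed FPKM per library (y axis, points) of the 4 substrate lists, left, and the 7 gene families, right, with bars for the mean and error bars for the SD of 3 libraries. *Slc3a2* counts in 3 of the substrate lists; the cystine list had the largest ratio of Tyr-H to Tyr-L (2.72) and the glutamine list the smallest (1.27), and the ratios of SLC6 and SLC43, 0.934 and 0.898, were 1.04 and 1.00 with median ratio scaling.

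*Slc6a9* (ENSMUSG00000028542, chr4:117834506-117875198, plus strand) encodes a glycine carrier of the SLC6 family and had the largest log2 fold change of the tested transporters. It was at 2.01, 3.12 and 2.64 FPKM in Tyr-L and at 14.4, 15.5 and 16.7 FPKM in Tyr-H libraries. The ratio of the means was 6.01, and the fitted log2 difference was 2.56 (standard error 0.14, adjusted p = 9.6e-07). The gene overlaps *B4galt2* and *Ccdc24* on the opposite strand. *B4galt2* had a Tyr-L mean of 4.13 FPKM and a Tyr-H mean of 2.83 FPKM, so it differed in the other direction (log2 fold change -0.54, adjusted p = 0.0039), and *Ccdc24* stayed under 0.4 FPKM.

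None of the other 4 tested SLC6 genes passed the adjusted p on the higher side, and 2 (*Slc6a6* and *Slc6a17*) passed it on the lower side, where *Slc6a17* was lost under the other scalings given above. *Slc6a6*, the taurine carrier, was the most abundant transporter in Tyr-L cells, came after *Slc3a2* and *Slc7a5* in Tyr-H cells, and was lower in Tyr-H cells, at 126, 134 and 134 FPKM against 103, 107 and 102 FPKM (log2 fold change -0.34, standard error 0.04, adjusted p = 4.2e-05). *Slc6a8*, the creatine carrier, had means of 56.2 and 59.4 FPKM and overlapping groups, and its log2 fold change of 0.08 (adjusted p = 0.17) became -0.01 after rescaling to the same total. With median ratio scaling (0.23, adjusted p = 0.0019) and quantile normalization (0.16, adjusted p = 0.019) *Slc6a8* passed as higher. The SLC6 sum was 218 ± 1.21 FPKM (Tyr-L) and 204 ± 2.92 FPKM (Tyr-H), a ratio of 0.934 that became 1.04 with median ratio scaling.

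Both tested SLC36 genes, *Slc36a1* and *Slc36a4*, were lower in Tyr-H cells. *Slc36a1*, a proton-coupled carrier of small neutral amino acids found on the lysosomal membrane, read 10.3, 10.2 and 10.1 FPKM in the Tyr-L group and 8.03, 7.62 and 7.51 FPKM in Tyr-H libraries (log2 fold change -0.40, adjusted p = 2.2e-04). *Slc36a4*, a carrier of proline and tryptophan, was at 4.93 to 5.66 FPKM in Tyr-L and at 3.52 to 4.46 FPKM in Tyr-H libraries (log2 fold change -0.39, adjusted p = 0.011). It did not pass with median ratio scaling (-0.23, adjusted p = 0.085) or quantile normalization (-0.21, adjusted p = 0.12). *Slc38a6*, an SLC38 gene of less certain substrate, was lower as well, at 7.81 to 7.98 FPKM against 5.23 to 5.50 FPKM (log2 fold change -0.54, adjusted p = 7e-05). None of these reached a 2-fold change. *Slc38a10*, a broadly expressed SLC38 gene, was at 65.4 ± 2.78 and 68.4 ± 0.865 FPKM (SD, n = 3) with overlapping groups, and its log2 fold change of 0.07 (adjusted p = 0.17) became -0.03 after rescaling. It passed as higher with median ratio scaling (0.22, adjusted p = 0.0013) and quantile normalization (0.13, adjusted p = 0.018).

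**Figure D4:**
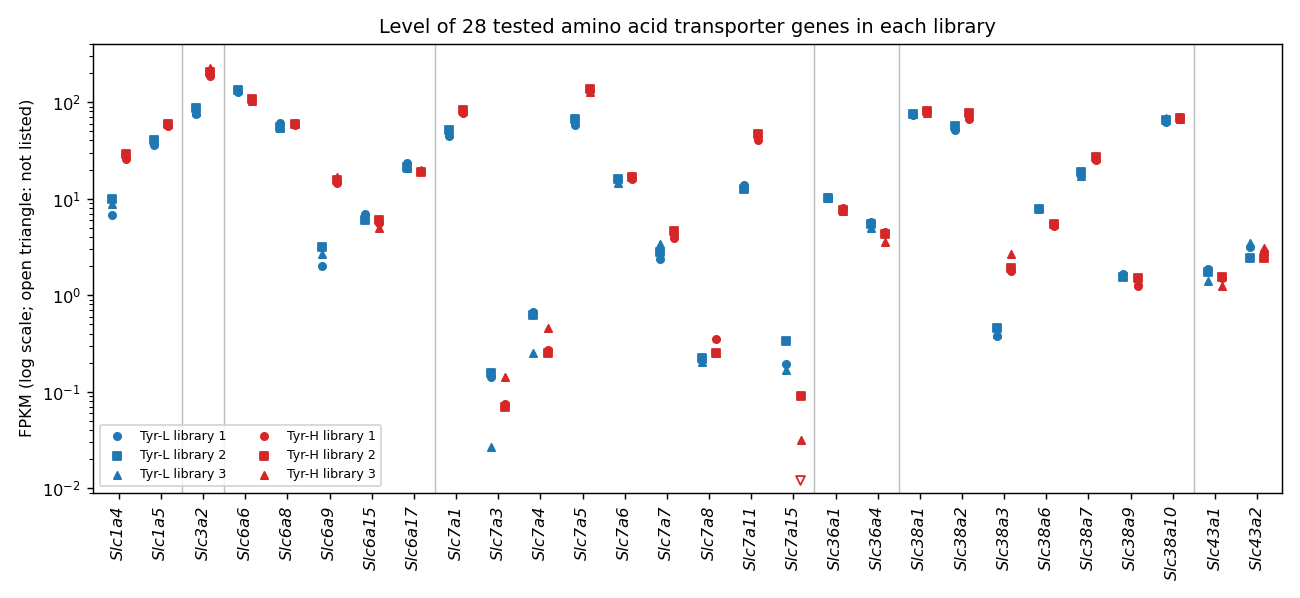
FPKM of the 28 tested transporters in each of the 6 libraries (y axis on a log scale), grouped by family, with blue for Tyr-L and red for Tyr-H libraries and an open triangle for a gene that a library did not list. Listed values ran from 0.0269 FPKM (*Slc7a3* in Tyr-L library 3) to 225 FPKM (*Slc3a2* in Tyr-H library 3). The 6 genes called higher had no overlap between the groups, which their selection made likely, and 64% of all tested genes had none.

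By family, all members summed to 733 ± 22.1 FPKM (Tyr-L) and 1045 ± 35.8 FPKM (Tyr-H; SD, n = 3), a ratio of 1.43. The 6 genes called higher made up 22.9% of the sum in Tyr-L and 40.9% in Tyr-H cells. The direction of this difference was set by their choice as genes higher in Tyr-H cells. The SLC3 sum, nearly all *Slc3a2*, had a ratio of 2.55, SLC7 of 1.95, SLC1 of 1.81, SLC38 of 1.14, SLC6 of 0.934, SLC43 of 0.898 and SLC36 of 0.760. The calls fell on 3 of the 9 tested SLC7 genes, 2 higher and 1 lower. In SLC38, 1 of 7 was called higher, in SLC6 1 of 5, in SLC1 1 of 2 and in SLC3 1 of 1. The shares over all tested genes were 2.96% called higher and 5.78% called lower. Every tested gene passed the adjusted p on the higher side in SLC1 (2 genes) and SLC3 (1 gene), and on the lower side in SLC36 (2 genes, 1 of them not under median ratio scaling or quantile normalization).

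The 16 members that were too low to test stayed at or below 0.136 FPKM in every library. *Slc7a14* was the sole one of them listed in all 6 libraries. Of the others, *Slc36a3* had the highest value, in Tyr-H library 1, and *Slc6a12* was listed in 1 library at 0.124 FPKM. *Slc7a2*, *Slc38a5*, *Slc7a10* and *Slc7a13*, carriers of cationic, glutamine-type and small neutral or acidic amino acids, were among the 17 names listed nowhere.

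A list of 9 transporters known as ATF4 targets was all tested. Of these, 5 were called higher (*Slc6a9*, *Slc7a11*, *Slc1a4*, *Slc3a2* and *Slc7a5*), beside 2.96% of all tested genes. With *Slc7a1*, *Slc1a5* and *Slc38a2* added, 8 passed the adjusted p on the higher side, and none passed it on the lower side. The gene that did not pass was *Slc7a3*, at a log2 fold change of -0.05. This list was chosen with earlier results of these data known, and a role of ATF4 was not tested. The median log2 fold change was 1.08. Among the 19 tested transporters outside this list, 1 was called higher and 1 lower, 3 passed the adjusted p on the higher side and 6 on the lower side, and the median was -0.17. These shares lie near those of all tested genes, 17.9% and 39.9%, but they depended on the scaling. With median ratio scaling and with quantile normalization, *Slc6a8*, *Slc7a6*, *Slc38a1* and *Slc38a10* also passed as higher. Under both, *Slc6a17* and *Slc36a4* no longer passed as lower.

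Genes next to these carriers in amino acid metabolism were counted as well. Of 17 amino acid synthesis genes, all tested, 8 were called higher, 14 passed the adjusted p on the higher side and 2 on the lower side, with a median log2 fold change of 0.87. Over all tested genes 2.96% were called higher, and 17.9% and 39.9% passed the adjusted p on the higher and the lower side. *Pycr1*, the last enzyme of proline synthesis, had the largest log2 fold change among them, from 1.19, 1.68 and 1.49 FPKM to 11.6, 11.8 and 14.4 FPKM (log2 fold change 3.04, adjusted p = 3.7e-07). *Asns*, asparagine synthetase, went from 61.1, 76.0 and 68.3 FPKM to 241, 244 and 256 FPKM (log2 fold change 1.85, adjusted p = 1.8e-07). *Cth*, which makes cysteine from cystathionine, had a log2 fold change of 1.88, and its means were 11.9 and 44.1 FPKM. *Gpt2* (1.89), *Aldh18a1* (1.62), *Psph* (1.50), *Shmt2* (1.20) and *Bcat1* (1.05), enzymes of alanine, proline, serine, glycine and branched-chain amino acid metabolism, were the others called, with their log2 fold changes. *Glul* and *Ass1*, which make glutamine and argininosuccinate, were lower at log2 fold changes of -0.70 and -0.45.

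Carriers of amino acids not matched by this choice of names were counted in the same way. Of 12 tested, none was called in limma, 7 had an unadjusted p under 0.05, 3 passed the adjusted p on the higher side and 4 on the lower side, and the median log2 fold change was -0.02. These shares too lie near the 17.9% and 39.9% of all tested genes. The 3 higher were *Mfsd12*, needed for cysteine import into melanosomes, at 7.37 ± 0.25 and 12.3 ± 0.473 FPKM (log2 fold change 0.73), the mitochondrial basic amino acid carrier *Slc25a29* (0.62) and the lysosomal histidine and peptide carrier *Slc15a4* (0.22). The 4 lower were the mitochondrial carriers *Slc25a44* (-0.64), *Slc25a38* (-0.29), *Slc25a12* (-0.23) and *Slc25a13* (-0.12), in log2 fold change. With median ratio scaling the last pair was at -0.08 and 0.03, with quantile normalization at -0.11 and -0.05, and neither passed, which leaves 2 lower. *Ctns*, the lysosomal cystine exporter, had overlapping groups with means of 11.4 and 10.3 FPKM.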

How the data were processed

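The authors deposited FPKM values per gene for each of the 6 libraries, already scaled for transcript length and library size. The submitters' processing notes name Trimmomatic, HISAT2, HISAT and the GRCm38.p6 build. The quantifier, its annotation and the handling of strand are not given in the sources used here. A gene not listed in a library was taken as 0. Condition and replicate number came from the submitters' labels.

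The files hold no counts, so depth was estimated from the steps between low FPKM values, in genes whose transcript spans 1500 nt or more (3 fragments set the floor), and no count model was run. Log2(FPKM + 0.1) was fitted with limma 3.58.1 in R 4.3.3 for the 14336 genes whose mean over the 6 libraries reached 0.1 FPKM. The design had a term for the group, the variance was moderated with a trend on the mean, and two-sided p-values were adjusted over all these genes by Benjamini-Hochberg. Calls needed an adjusted p no larger than 0.05 and a change of 1 or more on the log2 scale in either direction. Lists are described by counts, medians and sums, without a test. Tables were made with pandas 2.3.3 and numpy 2.4.6, and plots with matplotlib 3.10.9, in Python 3.11.15.

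The members and lists were chosen with earlier results of these data known. Named are all tested members of the substrate lists, other members called or with a mean of at least 5 FPKM, the 1 tested member left, and genes of the further lists that were called or stand in a count of 5 or fewer. *Cd68*, *Ctns*, overlapping genes and untested members were named after their values were seen. One gene was left out of the synthesis list for a reason unrelated to its values, and it is not reported here. Gene positions and overlaps came from GENCODE M21 (GRCm38), and 29 of the 44 deposited loci were equal to the annotated gene. Median absolute log2 differences between libraries were 0.0953 to 0.114 within groups and 0.315 to 0.371 between them, and no pair shared more than 1 identical value. Alternatives were pseudocounts of 0.01 and 1, no filter, a filter at a mean of 1 FPKM, equal totals of 1000000, median ratio scaling, quantile normalization, other variance estimates, the replicate number as a block, group-mean folds and leaving out each library.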

Additional observations from a re-analysis of the deposited data

How the results depend on the processing

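The count of transporters called higher was 6 under every alternative except rescaling to equal totals, where it was 5, without *Slc7a5*. With the filter at a mean of 1 FPKM, *Slc38a3* stayed testable only through its Tyr-H mean of 2.13 FPKM, as its Tyr-L mean was 0.408 FPKM. The count called lower was 0 with a pseudocount of 1, 0 with that filter set to a mean of 1 FPKM, and 0 to 1 with a library left out, 0 being without Tyr-L library 2. There *Slc7a15* was at -1.05 (adjusted p = 0.063), and its other values ran from -0.24 with a pseudocount of 1 to -2.74 with a pseudocount of 0.01, with -1.82 after rescaling. Rescaling to 1000000 FPKM took *Slc7a5* to 0.99 and *Bcat1* to 0.96. Scaling moved all genes: their median of -0.15 was -0.25 rescaled, -0.01 with median ratio scaling and -0.02 with quantile normalization, and calls on the higher side were 33.9% of all calls, against 25.5%, 47.8% and 54.1%. In all 1254 genes were called, against 388 with a pseudocount of 1 and 640 with a filter at a mean of 1 FPKM. The median log2 fold change of the tyrosine list (-0.11) was 0.041 with median ratio scaling, 0.056 with quantile normalization, -0.20 rescaled and -0.16 to 7.3e-05 with a library left out, the last without Tyr-L library 3. That of the cystine list (1.71) was 0.75 with no filter, 1.86 and 1.84 with median ratio and quantile scaling, and 1.56 to 1.77 with a library left out. The cationic median (0.12) was 0.59 with the filter at a mean of 1 FPKM, 0.026 with no filter, 0.027 rescaled, 0.27 with median ratio scaling and 0.26 with quantile normalization, and the glutamine median (0.48) was 0.40 with no filter, 0.39 rescaled, 0.64 with median ratio scaling and 0.56 with quantile normalization. Ratios of summed FPKM, rescaled, with median ratio scaling and with quantile normalization, were 1.34, 1.59 and 1.50 for all members and 1.19, 1.41 and 1.34 for glutamine. For tyrosine the ratio was 1.95 rescaled, and median ratio scaling gave 2.32 for tyrosine, 3.02 for cystine, 2.30 for cationic carriers, 1.04 for SLC6 and 1.00 for SLC43, which was 1.02 with quantile normalization. Signs turned for *Slc6a8* (-0.014), *Slc38a1* (-0.019) and *Slc38a10* (-0.028) when rescaled, for *Slc43a2* with median ratio scaling (0.041), quantile normalization (0.056) and a library left out (-0.26 to 7.3e-05, the last without Tyr-L library 3), for *Slc25a13* with median ratio scaling (0.035), and for *Slc7a3* with a pseudocount of 0.01 (0.033), median ratio scaling (0.021), quantile normalization (0.13) and a library left out (-0.38 to 0.13). On the adjusted p alone, leaving out 1 library let *Slc6a8* (without Tyr-L library 1), *Slc7a6* (without Tyr-L library 2) and *Slc38a1* (without Tyr-H library 3) pass as higher, and cost *Slc25a12* (without Tyr-L library 1 or Tyr-H library 2) and *Slc25a13* (without Tyr-L library 2 or Tyr-H library 2 or 3) their pass, while *Slc6a15* passed as lower when rescaled (-0.29, adjusted p = 0.024). The cause of these shifts was not tested.

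Taken over all tested genes, the replicate numbers 1 to 3 gave no sign of pairing. Correlations of same-numbered deviations were 0.0223, 0.0132 and -0.0834, and not every library correlated best with its own number. With the number as a replicate block, 6 transporters were called higher and 1 lower, and 1258 of all genes were called. The block made the standard error smaller for some transporters, such as *Slc1a4* (0.073 against 0.12). It was larger for others, such as *Slc7a11* (0.070 against 0.066), and pairing in single genes was not tested. The depth is an estimate, so the values of genes as low as *Slc7a15* and *Slc7a3* rest on few fragments.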
